A study of Mus musculus with 6 samples.

Results

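The miR-126a hairpin gives rise to a pair of mature microRNAs (miRNAs), mmu-miR-126a-3p and mmu-miR-126a-5p (miR-126a-3p and miR-126a-5p from here), and both arms were followed through small RNA libraries of exosomes, vesicles shed by cells. They were taken by name and are 2 of the 707 mature miRNAs in the count table. The exosomes came from supernatants of bone marrow-derived macrophages of C57BL/6 mice that were either homozygous for the san allele of Roquin-1 (Roquin-1 san:san, 3 libraries) or wild type (WT, 3 libraries). The Roquin-1 protein binds stem-loops in messenger RNAs and hastens their decay, and the sanroque (san) allele alters it. Age, sex and culture conditions are not given in the labels, and neither is the source of the replicates (separate animals, cultures or aliquots). All p-values thus reflect variation among these 6 libraries, part of which could be technical.

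miR-126 is best known from endothelial cells, the lining of blood vessels, where it is processed from an intron of Egfl7, a gene for a secreted protein of the vessel wall. The 3p arm represses Spred1 and Pik3r2, brakes on growth factor signalling in vessel growth, and the 5p arm is known to repress the Notch regulator Dlk1 in mouse endothelium. The miRNA is also made by blood stem cells, megakaryocytes and platelets, so it is not restricted to vessels.

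The sequences below show the seed of the 3p arm, its place in the hairpin and the antisense miRNA read from the other strand. The Mir126a hairpin spans 73 bases at chr2:26591357-26591429 on the plus strand of GRCm38 (RefSeq, GRCm38.p6). In the GENCODE annotation of the same build it lies inside Egfl7, on the same strand, within an intron of 8 of the 9 Egfl7 transcripts that span it and within an exon of the other, a transcript that retains the intron. Capitals mark the seed (bases 2 to 8, which direct target pairing) in the 3p arm, the 3p arm in the hairpin, and in miR-126b-5p the 19 bases that are the reverse complement of miR-126a-3p.
miR-126a-3p: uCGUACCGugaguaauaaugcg
Mir126a hairpin: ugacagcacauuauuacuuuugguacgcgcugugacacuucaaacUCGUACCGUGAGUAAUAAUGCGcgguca
miR-126b-5p: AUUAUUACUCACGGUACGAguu
The seed of miR-126a-3p was shared by 0 of the other mature miRNAs among the 1738 mouse entries of the RefSeq table. Mir126b is annotated on the opposite strand of the same hairpin.

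Library depth differed between the genotypes. The san:san libraries held 185901, 160588 and 126098 miRNA counts, and the WT libraries 12447, 28884 and 21754. Some names hold identical counts, such as miR-486a-5p and miR-486b-5p, so these totals can hold the same reads under several names. Totals implied by the authors' scaled values were 92.4% to 92.8% of these in san:san and 93.7% to 94.6% in WT. Shares of counts below use the totals as summed. One count was worth 5.38 to 7.93 CPM (counts scaled to a fixed library total) in san:san and 34.6 to 80.3 CPM in WT. Levels are given as CPM after TMM scaling, which corrects for differences in library make-up, and differences were tested with edgeR's quasi-likelihood test over the 254 miRNAs with enough counts. These levels are relative to the other miRNAs of a library and say nothing of copies per vesicle, and fewer vesicles of one source cannot be told apart from less of a miRNA in each.

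Both arms were higher in san:san exosomes. The 3p arm was 4.49-fold and the 5p arm 2.92-fold above WT, and on the scaled counts the genotypes did not overlap for either arm. Both passed the test, as did 64.2% of all tested miRNAs, with 34.6% of all tested miRNAs called higher and 29.5% lower in san:san. Scaling turned this balance, from 88 higher and 75 lower with TMM to 76 and 86 with RLE factors, 64 and 82 in DESeq2 and 49 and 101 with total counts, while both arms were called higher each time. With this scaling the median log2 fold change stood at 0.30 over all tested miRNAs, so both arms also lay above the bulk of the table.

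miR-126a-3p had 2185, 1328 and 954 counts in the san:san libraries 1, 2 and 3, against 57, 51 and 69 counts in the WT libraries 1, 2 and 3. Scaled for library size, the san:san libraries held 13778, 9991 and 9772 CPM and the WT libraries 3964, 1415 and 2499 CPM. The lowest san:san library was therefore above the highest WT library, a separation seen in the same direction for 39.8% of the tested miRNAs. The means were 11180 ± 2252 CPM in san:san and 2626 ± 1279 CPM in WT (SD, n = 3 each). The log2 fold change was 2.17 ± 0.31 (SE, edgeR adjusted p = 3.41e-05).

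miR-126a-5p had 10747, 7138 and 3290 counts in the san:san libraries 1, 2 and 3, against 402, 474 and 347 counts in the WT libraries 1, 2 and 3. The scaled levels were 67768, 53701 and 33699 CPM in san:san and 27955, 13154 and 12568 CPM in WT. Again no WT library reached the lowest san:san library, but WT replicate 1 and san:san replicate 3 lay close together. The means were 51723 ± 17120 CPM in san:san and 17892 ± 8719 CPM in WT (SD, n = 3 each). The log2 fold change was 1.55 ± 0.32 (SE, edgeR adjusted p = 9.22e-04).

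**Figure D1:**
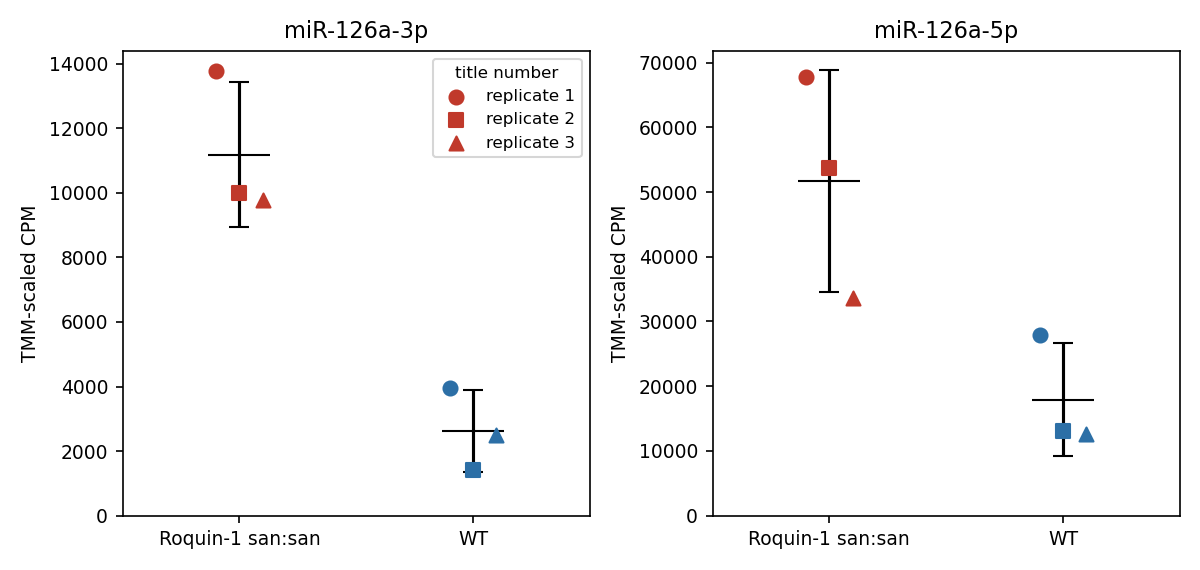
TMM-scaled CPM of miR-126a-3p (left) and miR-126a-5p (right) in each library, with Roquin-1 san:san left of WT; marker shape gives the replicate number, and the bars are the mean ± SD of 3 libraries. For miR-126a-3p the san:san libraries sit between 9772 and 13778 CPM and the WT libraries between 1415 and 3964 CPM; for miR-126a-5p the closest libraries are san:san replicate 3 at 33699 CPM and WT replicate 1 at 27955 CPM.

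As a plain share of each library's counts, without the make-up correction, the 3p arm separated the genotypes and the 5p arm did not. How many of all tested miRNAs separate on such shares was not counted, so whether this sets the 3p arm apart was not tested. With total counts, 49 of all 254 tested miRNAs were called higher in san:san and 101 lower. miR-126a-3p made up 1.18%, 0.827% and 0.757% of the san:san libraries and 0.458%, 0.177% and 0.317% of the WT libraries, still without overlap (exact two-sided permutation p = 0.1, the smallest that 3 against 3 allows). The 57 counts of WT replicate 1 give that library a 95% Wilson interval of 0.354% to 0.593%, which ends below the lowest san:san share. miR-126a-5p made up 5.78%, 4.44% and 2.61% of the san:san libraries and 3.23%, 1.64% and 1.60% of the WT libraries. Here san:san replicate 3, with a Wilson interval of 2.52% to 2.70%, lay below WT replicate 1, with 2.93% to 3.55%, so the 5p shares overlapped between genotypes beyond counting error (exact permutation p = 0.2). Both arms together averaged 5.20% ± 1.80 of counts in san:san and 2.47% ± 1.05 in WT (SD, n = 3 each; exact permutation p = 0.2). With the 5 most abundant other miRNAs left out of the total, the differences in share, san:san minus WT, were 1.11 percentage points for the 3p arm and 4.21 for the 5p arm, in place of 0.602 and 2.12, and neither arm overlapped (exact permutation p = 0.1 each). Such intervals cover counting error only.

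Among the miRNAs of its own library, miR-126a-5p ranked 2nd, 6th and 9th in the san:san libraries and 7th, 15th and 19th in the WT libraries. Its ranks thus overlapped. miR-126a-3p ranked 19th, 26th and 26th in san:san and 40th, 82nd and 52nd in WT, with no overlap. The share of all miRNAs whose ranks separate in the same way was not counted. By mean scaled level in san:san, miR-126a-5p stood between miR-93-5p (52193 ± 5357 CPM) and miR-92a-3p (36276 ± 1399 CPM), and in WT between let-7b-5p (21749 ± 1973 CPM) and let-7d-3p (17465 ± 4960 CPM). The 3p arm stood between miR-144-5p (11923 ± 550.2 CPM) and miR-23b-3p (11081 ± 1602 CPM) in san:san, and between miR-185-5p (2657 ± 57.3 CPM) and miR-199a-3p (2575 ± 1289 CPM) in WT. In each of these places the gap to either neighbour was smaller than the SD of the miR-126a arm (SD, n = 3).

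The 5p arm was the more abundant one in all 6 libraries. Its share of both arms was 83.1%, 84.3% and 77.5% in the san:san libraries 1, 2 and 3, and 87.6%, 90.3% and 83.4% in the WT libraries 1, 2 and 3. In other terms, each 3p count came with 4.92, 5.38 and 3.45 counts of 5p in san:san, against 7.05, 9.29 and 5.03 in WT. WT replicate 3 lay within the san:san range, so the genotypes overlapped, and the means of 81.6% ± 3.62 in san:san and 87.1% ± 3.46 in WT did not separate (SD, n = 3 each; exact permutation p = 0.2). The Wilson intervals were narrow in san:san (76.2% to 78.8% in replicate 3, from 4244 counts) and wide in WT (79.5% to 86.7% in replicate 3, from 416 counts).

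Because both arms are read from the same library, this ratio does not depend on how libraries are scaled. Over the 25 hairpins with enough counts of both arms, the log2 ratio of 5p to 3p for miR-126a was lower in san:san by 0.61 ± 0.33 (SE), which did not pass (limma adjusted p = 0.175), and 52.0% of the hairpins did pass. The 95% interval of the log2 difference, san:san minus WT, ran from -1.42 to 0.19, which includes both 0 and a 2-fold shift toward the 3p arm. The stronger rise of the 3p arm was therefore not separable from an equal rise of both. Larger shifts were measured for other hairpins in both directions: -5.88 for miR-23a and -3.45 for miR-25, and 3.91 for miR-125a and 3.78 for miR-130b (limma adjusted p between 2.67e-05 and 0.00538). Of the 25, 9 hairpins had a more negative difference than miR-126a.

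**Figure D2:**
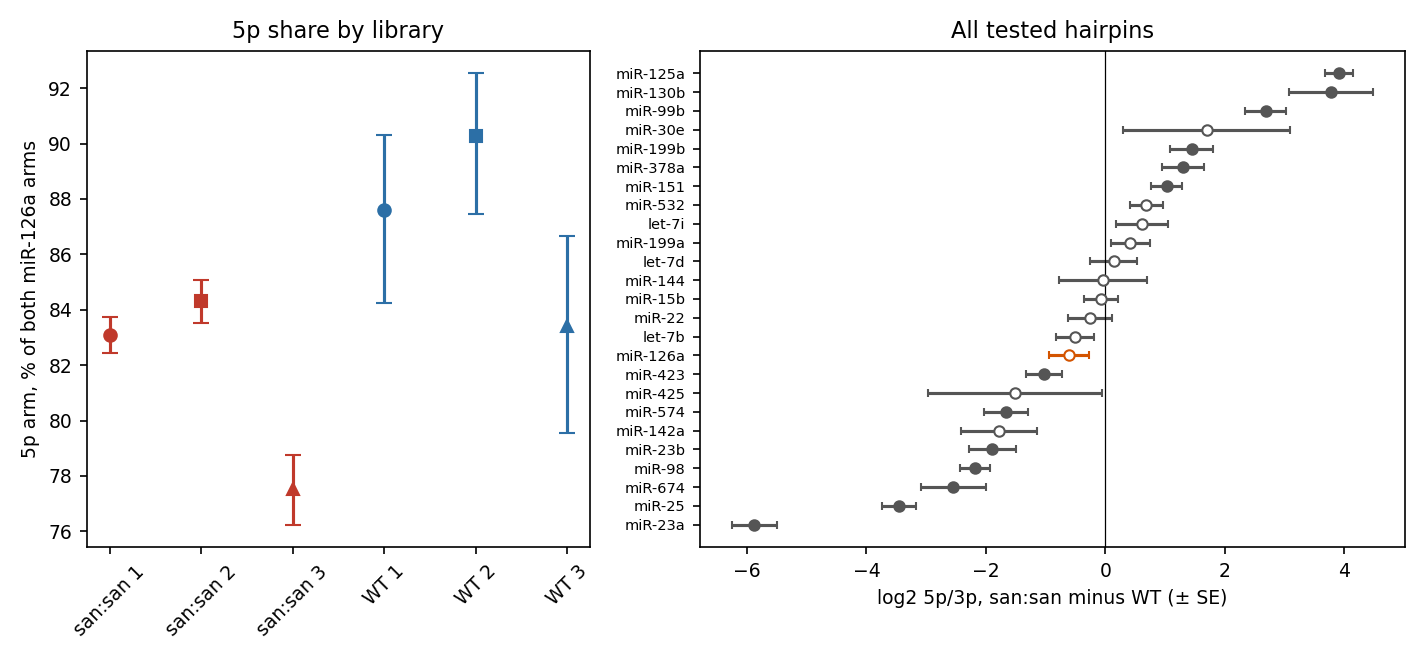
Left, the 5p arm as a percentage of both miR-126a arms in each library, with 95% Wilson intervals; the axis does not start at 0. Right, the difference in log2 5p/3p, san:san minus WT, with its SE for the 25 tested hairpins, miR-126a in orange and filled points past an adjusted p of 0.05. The 5p share is 77.5% to 84.3% in san:san and 83.4% to 90.3% in WT, and miR-126a has an open point at -0.61.

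The antisense hairpin contributed almost nothing. miR-126b-3p had 1, 4 and 0 counts in the san:san libraries and 0 in every WT library. miR-126b-5p had 1, 0 and 0 counts in san:san and 0 in WT. Over the 63085 WT counts, a count of 0 allows a share of up to 0.00476%, so no difference was detectable at this depth. Whether the counting used strand is not given in the sources used here, and without strand the reads of miR-126a-3p and miR-126b-5p could not be told apart. The same may hold for miR-126a-5p, as miR-126b-3p is annotated opposite the start of the hairpin, at chr2:26591363-26591385.

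The erythroid, myeloid and lymphocyte lists took a larger summed share of every san:san library than of any WT library. The summed share of the miR-126a and miR-126b names overlapped, at 3.37% to 6.96% in san:san and 1.82% to 3.69% in WT. The part of the blood-cell lists in the miR-126a difference was not tested. The counts of raised names below stand beside 34.6% of all tested miRNAs raised. Erythroid miRNAs, from red blood cell precursors, rose for 4 of 5 tested names, with a median log2 fold change of 1.97 beside 0.30 for all tested miRNAs. The names miR-486a-5p and miR-486b-5p have identical counts in all 6 libraries, so these called names rest on the same values. The summed share holds these counts under both names and so overstates the list in both genotypes. Counted under miR-486a-5p alone, the list still took a larger share of every san:san library than of any WT library. The 7 names of this list summed to 15.6% to 17.9% of counts in san:san and 3.84% to 6.25% in WT, and its defining member miR-451a, whose maturation bypasses Dicer, rose by log2 1.97 ± 0.24 (edgeR adjusted p = 8.21e-06). Myeloid miRNAs rose for 5 of 6 tested names (median 1.05) and summed to 10.4% to 12.0% of counts in san:san and 5.23% to 6.19% in WT. The separation of this sum rests on miR-142a-3p, with 8260, 8290 and 8826 counts in san:san and 86, 354 and 455 in WT. Without that name the summed myeloid shares overlapped between the genotypes. The myeloid name miR-223-3p was not called with total counts (edgeR adjusted p = 0.336) or in DESeq2 (DESeq2 adjusted p = 0.0662). Without WT replicate 2 it was not called either (edgeR adjusted p = 0.129). The lymphocyte miRNA miR-150-5p had 3578, 2787 and 1734 counts in san:san and 59, 118 and 107 in WT, and rose by log2 2.46 ± 0.21 (edgeR adjusted p = 3.54e-07). Liver and gut miRNAs rose for 3 of 4 tested names, yet their summed share overlapped, at 0.562% to 0.776% in san:san and 0.584% to 0.786% in WT. The most abundant of them, miR-122-5p, was not called (log2 0.33 ± 0.21, edgeR adjusted p = 0.186). The called miR-122-3p had 33, 32 and 25 counts in san:san and only 1, 1 and 0 in WT. With total counts, 3 myeloid names and 1 liver name (miR-122-3p) were still called, beside 49 of all 254 tested miRNAs higher. The smooth muscle list, for the other main cell of the vessel wall, had 0 of 2 tested names called (1 lower with total counts) and summed to 0.248% to 0.307% of san:san and 0.372% to 0.450% of WT counts. The 5 epithelial names had too few counts to test, at 0.00623% to 0.0103% of san:san counts and 0 counts in WT.

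Set against 5 blood-cell miRNAs within each library, 8 of the 10 ratios overlapped between the genotypes. The log2 ratio of miR-126a-3p to miR-451a was -1.74, -2.25 and -2.70 in san:san and -1.31, -3.27 and -2.72 in WT, a full overlap. Its ratios to miR-486a-5p (an erythroid miRNA), miR-150-5p and miR-142a-3p (a miRNA of all blood cells) overlapped too, with san:san minus WT differences of -0.32, -0.25 and -0.55. Against miR-223-3p, a miRNA of granulocytes and monocytes, the ratio was 0.42, -0.07 and 0.35 in san:san and -0.66, -1.20 and -1.33 in WT, higher in every san:san library by 1.29 on average (exact permutation p = 0.1, the smallest possible, and 0.5 after Benjamini-Hochberg adjustment over the 10 ratios).

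For miR-126a-5p the ratio to miR-150-5p was 1.59, 1.36 and 0.92 in san:san and 2.77, 2.01 and 1.70 in WT, lower in every san:san library by 0.87 on average (exact permutation p = 0.1, adjusted 0.5). The other 4 ratios of this arm overlapped between genotypes, with differences of -0.41 to miR-451a, -0.94 to miR-486a-5p, -1.17 to miR-142a-3p and 0.68 to miR-223-3p. With 3 libraries a genotype none of the 10 ratios could pass, so these values do not show that the arms and the blood-cell miRNAs changed alike. Without WT replicate 1, where both arms stood highest against miR-451a, miR-486a-5p, miR-150-5p and miR-142a-3p, the differences of miR-126a-3p to miR-486a-5p, miR-150-5p and miR-142a-3p turned to 0.16, 0.041 and 0.17, and that of miR-126a-5p to miR-451a to 0.16.

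**Figure D3:**
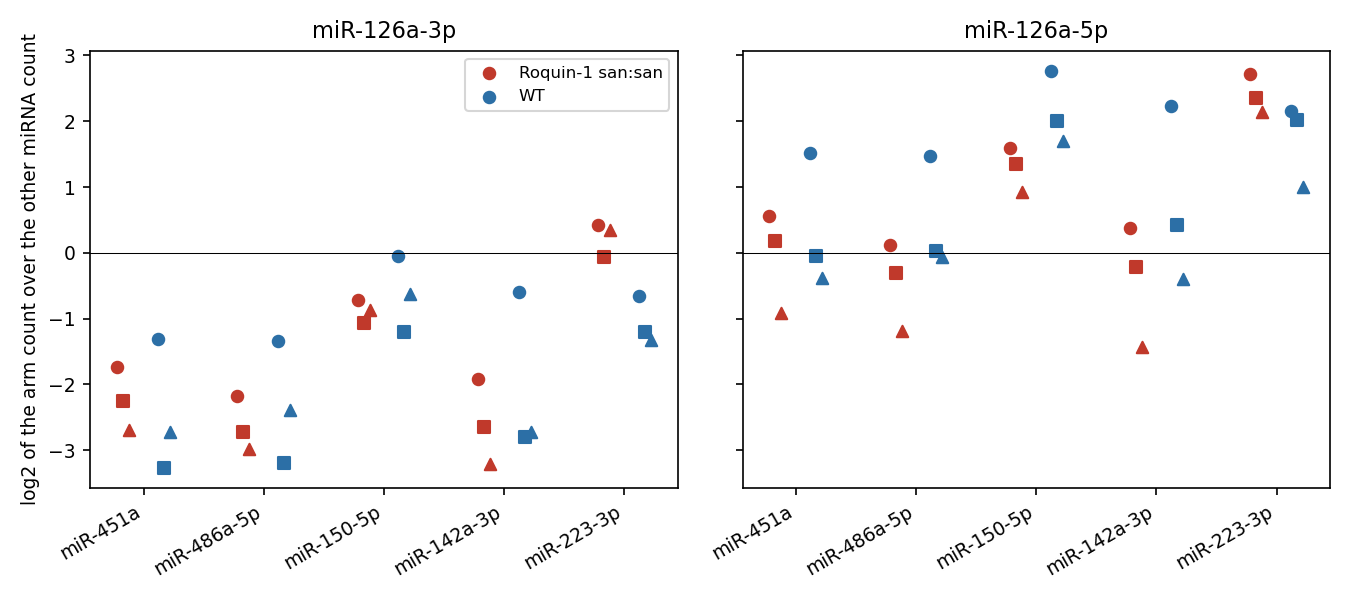
Log2 of the count of miR-126a-3p (left) and miR-126a-5p (right) over the count of each of 5 blood-cell miRNAs in the same library, Roquin-1 san:san (red) left of WT (blue), marker shape giving the replicate number as in the plot of levels. The genotypes separate for miR-126a-3p over miR-223-3p, where san:san is higher by 1.29, and for miR-126a-5p over miR-150-5p, where san:san is lower by 0.87, and they overlap for the others.

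Other miRNAs with roles in endothelial cells or vessel growth did not share one direction. Of 27 names on this list, 20 were deep enough to test, 4 rose, 3 fell and 13 did not pass, beside 34.6% of all tested miRNAs higher and 29.5% lower, with a median log2 fold change of -0.05 beside 0.30 for all tested miRNAs. The fallen names were miR-130a-3p (log2 -4.19 ± 0.27, edgeR adjusted p = 3.22e-08), which represses anti-angiogenic homeobox genes in human endothelial cells, miR-31-5p (-5.25 ± 0.37, 6.03e-08) and miR-378a-3p (-2.04 ± 0.29, 3.87e-05). Those that rose were miR-16-5p, miR-17-5p, miR-20a-5p and miR-222-3p, by log2 0.85, 0.99, 1.06 and 0.73 (chosen for mention after their values were seen). Scaling changed this split: RLE factors gave 3 higher and 7 lower names, DESeq2 gave 2 higher and 6 lower, and total counts gave 0 higher and 10 lower. The summed share of the list was 9.99% to 12.0% in san:san and 20.1% to 23.2% in WT, opposite to the miR-126a arms.

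**Figure D4:**
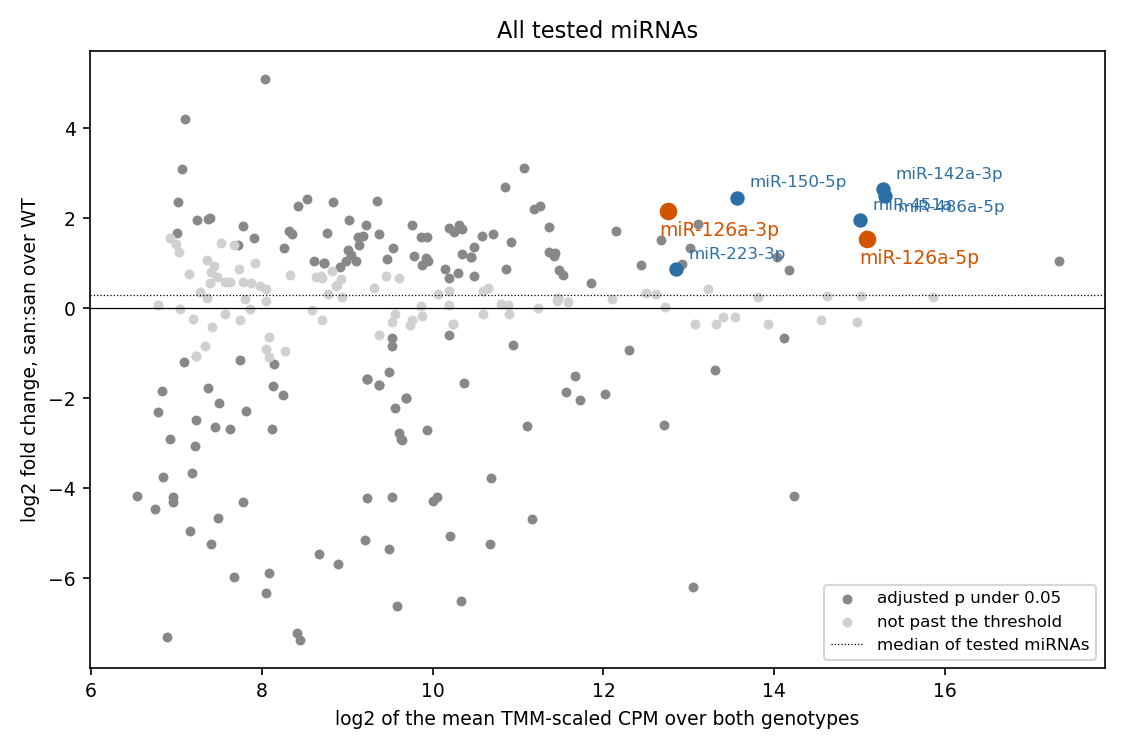
Log2 fold change, san:san over WT, against log2 mean TMM-scaled CPM for the 254 tested miRNAs, with the miR-126a arms in orange and 5 blood-cell miRNAs in blue. miR-126a-3p at 2.17 and miR-126a-5p at 1.55 lie above the dotted median of 0.30, with miR-150-5p, miR-451a, miR-486a-5p and miR-142a-3p above miR-126a-5p and miR-223-3p below it.

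Profiles most like each arm were ranked by the root-mean-square difference of log2 scaled CPM over the 6 libraries, after centring each miRNA on its mean. For miR-126a-3p they were miR-18a-3p (0.31), miR-98-3p (0.31), miR-342-3p (0.37), miR-150-5p (0.37) and miR-127-3p (0.40), where the median over the 252 other tested miRNAs was 1.17. For miR-126a-5p they were miR-411-5p (0.32), miR-328-3p (0.34), miR-495-3p (0.36), miR-342-3p (0.37) and miR-376c-3p (0.38), with a median of 1.02. The arms differed from each other by 0.44 on this measure, more than each differed from any of those 5, and miR-342-3p was the only name on both lists. Several of these names rest on few WT counts. In WT, miR-18a-3p, miR-98-3p, miR-127-3p and miR-495-3p averaged 122, 166, 218 and 164 CPM, and miR-411-5p and miR-376c-3p 336 and 323 CPM. There, 1 count was worth 34.6 to 80.3 CPM before TMM scaling. These likenesses describe 6 libraries of 2 genotypes that share depth differences, and carry no test.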

How the data were processed

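Small RNA libraries of 3 Roquin-1 san:san and 3 WT samples were analysed, with groups and replicate numbers from the sample titles. Per the labels, RNA was extracted with Trizol and libraries followed standard Illumina miRNA protocols. The labels also list a TruSeq RNA kit, and which preparation was used is not settled by them. The submitters' processing notes list mm9 as genome build. Aligner, read filters and miRNA annotation release: not given in the sources used here. For the series, the authors deposited whole-number counts per mature miRNA, and per library a scaled signal (headed TPM, but summing to more than TPM values can) that equals the deposited counts of both arms times a constant.

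Genotypes were compared in edgeR 4.0.16 (R 4.3.3) by quasi-likelihood, after filterByExpr at a minimum count of 10 and TMM scaling. The model held genotype alone, and p-values were adjusted by Benjamini-Hochberg over 254 miRNAs. SEs were taken as the log2 fold change over the root of F. Arm ratios were tested with limma 3.58.1 on log2(5p/3p) with a pseudocount of 1 scaled to library size, keeping hairpins whose arms summed to 20 or more counts in each library, with 10 or more of each arm per genotype. Single values were compared by exact permutation. The procedures were checked on simulated counts. Alternatives were RLE, TMMwsp and total-count scaling, library sizes without the 5 most abundant miRNAs, other filters, DESeq2 1.42.0, merged identical rows, a replicate block and each library left out.

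The members and lists were chosen with earlier results of these data known. Named miRNAs are both arms, miR-126b, the 5 most alike profiles per arm, rank neighbours, up to 3 called members of each list (the rule allowed uncalled ones too), 5 blood-cell miRNAs and the hairpins with the 2 largest arm shifts in each direction. The number of columns from samples outside the series was 0.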

Additional observations from a re-analysis of the deposited data

How the results depend on the processing

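Both arms kept their edgeR and DESeq2 direction and their call under every alternative run. The log2 fold change of miR-126a-3p ranged from 1.60 (total counts) to 2.34 (no filter), and with a library left out from 1.74 to 2.44; that of miR-126a-5p ranged from 1.00 (edgeR adjusted p = 0.0124) to 1.74, and from 1.29 to 1.93. The median over all tested miRNAs was 0.30 (TMM), 0.04 (RLE factors) and -0.29 (total counts). The number of called miRNAs was 163, and 66 where at least 10 counts were asked for in every library, which left 103 miRNAs to test, with 2 vascular names higher and 2 lower and 0 liver names called. Without a filter 5 erythroid names were higher and 2 lower. The 2 lower names, miR-486a-3p and miR-486b-3p, have identical counts, 5 in WT replicate 2 and 0 in every other library. The arm ratio passed under none of the alternatives, with -0.84 to -0.40 when a library was left out (limma adjusted p from 0.0646 to 0.409). With a library left out, the san:san minus WT differences in log2 ratio ranged from -0.21 to 0.77 for miR-126a-3p over miR-451a, -0.76 to 0.16 over miR-486a-5p, -0.54 to 0.041 over miR-150-5p and -0.93 to 0.17 over miR-142a-3p, and from -0.79 to 0.16 for miR-126a-5p over miR-451a. The cause was not tested.

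The title numbers did not meet the rule for pairing: deviations of same-numbered libraries correlated at 0.10, -0.08 and 0.26, and san:san replicate 2 correlated best with WT replicate 1. With the replicate block, 161 miRNAs were called, the arms stood at 2.19 and 1.58, the arm ratio at -0.61 (limma adjusted p = 0.0868), and no call of these changed. The WT levels of miR-126a-3p rest on 51 to 69 counts, and WT replicates 1 and 2 still differed beyond counting error (Wilson intervals of 0.354% to 0.593% and 0.134% to 0.232%).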
